A study of Macaca fascicularis with 16 samples.

Results

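Genes for 9 proteins of the nucleolus were followed in the blood of cynomolgus macaques (Macaca fascicularis) given NKTT320, an antibody that recognises the T-cell receptor shared by invariant natural killer T cells. The 9 genes, DKC1, NHP2, NOP10, GAR1, FBL, NOP56, NOP58, NCL and NPM1, were found by their symbols among the 23602 gene symbols of the count tables, and all 9 had counts in all 16 libraries. Peripheral blood mononuclear cells (PBMC) of 4 animals of Mauritian origin, LG04, LG11, LG12 and LG15, were sampled before treatment and 30 minutes, 2 hours and 1 day after NKTT320. Each of the 4 times therefore has 4 libraries of total RNA depleted of ribosomal RNA, 1 per animal. Every animal received the antibody, no ages or doses are stated in the labels, and untreated animals were not analysed here, so any difference between times holds the effect of the antibody together with that of handling, repeated bleeding and time itself.

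Small nucleolar RNAs (snoRNAs) guide chemical modification of ribosomal RNA, and each works inside a ribonucleoprotein particle, the snoRNP. Box H/ACA particles carry the pseudouridine synthase dyskerin, the product of DKC1, with NHP2, NOP10 and GAR1, and the same proteins bind the RNA of telomerase. Box C/D particles carry the methyltransferase fibrillarin, the product of FBL, with NOP56 and NOP58. Nucleolin (NCL) and nucleophosmin (NPM1) are abundant nucleolar proteins with roles in the transcription of ribosomal DNA and in ribosome assembly and export. Lymphocytes that leave rest and grow are known to raise ribosome production, which needs all of these proteins.

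The libraries held 1417467 to 8582852 counts, and 3 counts, the smallest level treated as detectable, came to between 0.350 and 2.12 CPM (counts scaled by the library total). Globin transcripts took 0.0253% to 48.7% of the counts. In the cells labelled PBMC, all 9 T-cell markers and all 8 B-cell markers had counts at each time, and markers of platelets, red cells and neutrophils had counts as well. Between the 1 day libraries of LG04 and LG15 the chi-square per gene was 11.3, the fourth smallest of 120 pairs of libraries. All of the smaller ones were pairs within LG12. The chi-square was taken on counts and grows with depth, so its rank reflects depth as well as likeness. The 1 day libraries of LG04 and LG15 held 1846011 and 3156626 counts. The platelet marker sum was 25526 CPM in LG04 and 20365 CPM in LG15 at 1 day, against 350 to 2662 CPM in the other libraries of LG04. Fold changes at 1 day against pre-treatment are therefore also given without it. In bulk samples such as these, fewer cells of a type and less RNA per cell cannot be told apart.

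On the length-scaled unit of the deposited tables, FPKM (fragments scaled to gene length and library size), NCL and NPM1 led the set and the H/ACA genes NHP2, DKC1 and GAR1 ended it. Before treatment NCL averaged 159.8 ± 45.1 FPKM (SD, n = 4), NPM1 138 ± 34.7 FPKM and FBL 92.9 ± 49.5 FPKM. NOP58 averaged 45.7 ± 19.3 FPKM, NOP56 43.0 ± 21.6 FPKM and NOP10 38.0 ± 7.50 FPKM. NHP2 averaged 13.4 ± 3.40 FPKM, DKC1 11.4 ± 4.95 FPKM and GAR1 7.03 ± 1.66 FPKM.

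Some neighbours in that order were well apart and others were not. NPM1 lay above FBL, FBL above NOP58, NOP10 above NHP2 and DKC1 above GAR1 in 4 of 4 animals. NCL lay above NPM1, NOP58 above NOP56 and NHP2 above DKC1 in 3 of 4 animals, and NOP56 above NOP10 in 2 of 4, so these neighbours did not differ beyond their spread. Set against the 11545 genes that passed the filter on low counts, whose median was 9.64 FPKM over 16 libraries, NCL exceeded 97.0% of genes, NPM1 96.8%, FBL 95.2%, NOP58 87.6%, NOP56 85.9% and NOP10 85.1%. DKC1 exceeded 53.5%, NHP2 50.8% and GAR1 38.2%.

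The ratios between partners varied over the libraries to different degrees. Ratios of unrelated genes were not computed, so a narrow range is not shown to be particular to partners. The ratio of NOP56 to NOP58 in FPKM, the paired scaffold proteins of the C/D particle, stayed between 0.68 and 1.17 in 16 libraries (median 0.89). NCL to NPM1 was similarly narrow, at 0.83 to 1.33 (median 1.06). FBL to NOP58 ranged more widely, at 1.37 to 4.39 (median 2.19), with animal medians of 2.85 in LG04, 1.45 in LG11, 2.31 in LG12 and 2.76 in LG15.

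In the H/ACA particle the ratios to DKC1 were wider still. They also rest on fewer counts, as few as 5 for NHP2, 12 for GAR1, 17 for NOP10 and 35 for DKC1 in a library. NOP56, NOP58, FBL, NCL and NPM1 had 90 or more in each library, and the part of counting error in the widths was not tested. NOP10, the smallest protein of the particle, exceeded DKC1 in FPKM in 16 of 16 libraries, by 1.33 to 7.89 times (median 4.08). In CPM, without scaling to gene length, NOP10 averaged 13.8 and DKC1 27.9 before treatment, so their order depends on the unit. NHP2, an RNA-binding core subunit, stood at 0.30 to 2.14 times DKC1, with animal medians of 1.68 in LG04, 1.06 in LG11, 0.41 in LG12 and 1.35 in LG15. The NHP2 ratio had a median of 1.47 before treatment, 1.48 at 30 minutes, 0.78 at 2 hours and 0.64 at 1 day, and the ranges of the 4 times overlapped. Without the 1 day library of LG04 the 1 day median was 0.83 over 3 libraries. GAR1, the subunit that joins last, stood at 0.34 to 1.45 times DKC1 and exceeded it in 2 of 16 libraries.

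**Figure D1:**
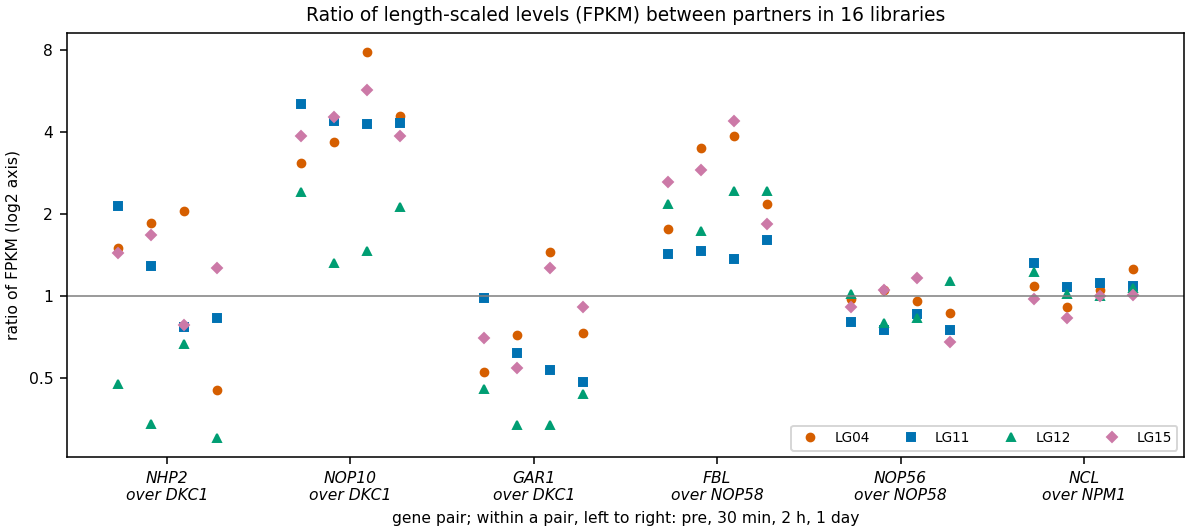
Ratio of FPKM between partners (log2 axis) in each of 16 libraries, 1 symbol per animal, with the 4 times side by side within a pair. The ratios of NOP56 to NOP58 (0.68 to 1.17) and NCL to NPM1 (0.83 to 1.33) lie close together, and those of NHP2 and NOP10 to DKC1 spread most, with LG12 low in both.

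None of the 9 genes passed the test between any 2 of the times. With edgeR's quasi-likelihood test, 0 of 9 passed the adjusted threshold of 0.05 at 30 minutes, where 0% of all genes tested were called, at 2 hours, where 0% were called, and at 1 day, where 0.225% were called, each against pre-treatment. The same held for 2 hours against 30 minutes (background 0%), 1 day against 2 hours (0.104%), 1 day against 30 minutes (0.0433%) and the joint test of any difference among the 4 times (0.104%). At an unadjusted p under 0.05 the count was 1 of 9, NPM1 at 1 day against 30 minutes, and 0 of 9 in each of the other comparisons. Of all genes tested, 13.1% had such a p at 1 day against 30 minutes, and 2.53% to 13.6% in the other comparisons, so 1 of 9 lies near that background too. DESeq2 also called 0 of 9 in every comparison, although at 30 minutes against pre-treatment it gave an adjusted p to 7 of the 9 only. Against pre-treatment it called 0.17% of all genes at 30 minutes, 0.577% at 2 hours and 3.07% at 1 day. Between later times it called 0.0744% at 2 hours against 30 minutes, 0.768% at 1 day against 2 hours and 2.67% at 1 day against 30 minutes, with 3.42% in the joint test. With so few calls among all genes, 0 of 9 lies near the background by either tool.

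The size of change that the data leave room for can be read from the intervals. At 30 minutes against pre-treatment the 95% intervals of 9 of 9 genes lay within a doubling or halving (log2 1 either way). In each of the other 5 comparisons this held for 8 of 9, the exception in each being NHP2. The median log2 fold change of the 9 genes against pre-treatment was -0.06 at 30 minutes, -0.11 at 2 hours and -0.07 at 1 day, beside 0.018, 0.021 and -0.00036 for all genes tested. In each of these comparisons 6 of 9 lay below 0 and 3 of 9 above. Of all genes tested, 54.0%, 52.7% and 50.0% lay above 0, in the same order. The 1 day median of the 9 genes was 0.084 when LG12 was left out and -0.18 without the 1 day library of LG04. Without that library the log2 fold changes at 1 day against pre-treatment were 0.053 for DKC1, 0.072 for NOP10, -0.057 for FBL, -0.31 for NOP56, -0.18 for NOP58, -0.33 for NCL, -0.18 for NPM1 and -0.0043 for GAR1, and 0 of 9 genes were called. In simulated data on 11545 genes, the same fit recovered 52 of 100 genes changed by log2 1 and 94 of 100 changed by log2 2 at 1 day against pre-treatment. It made 11 false calls there. The simulated counts were drawn independently for each gene, without shared shifts between times such as those of globin. Their variance also differed from the one that the quasi-likelihood model fits. The changed genes were drawn only among those with a mean log2 CPM above 2. The power for the 9 genes in the real libraries was therefore not measured.

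**Figure D2:**
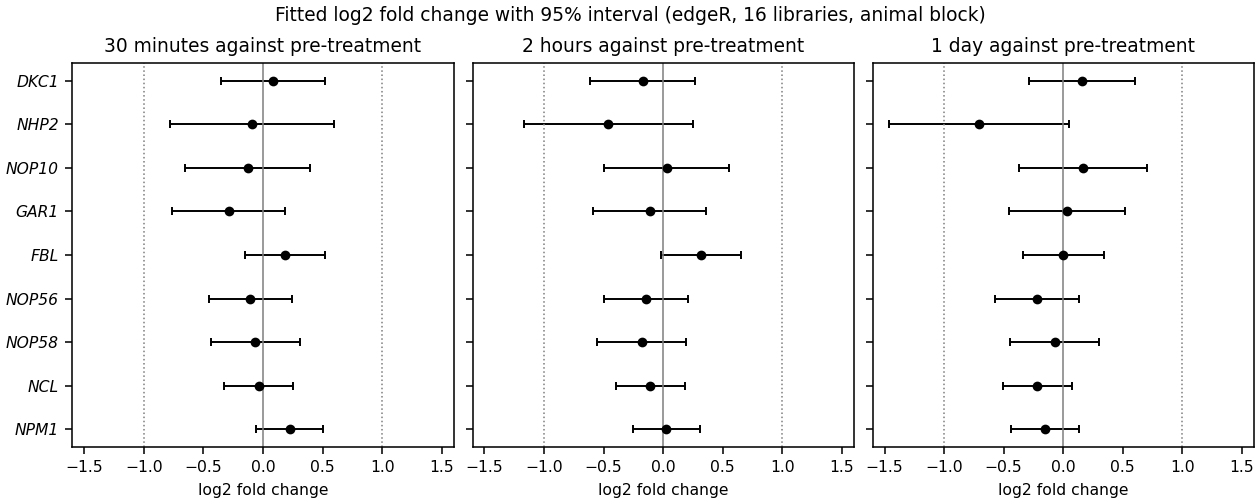
Fitted log2 fold change (points) with 95% interval (bars) of the 9 genes at 30 minutes, 2 hours and 1 day against pre-treatment, from edgeR on 16 libraries with animal as a block; dotted lines mark log2 -1 and 1. Every interval crosses 0, and only that of NHP2 passes a dotted line, at 2 hours (-1.17 to 0.25) and at 1 day (-1.46 to 0.049).

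Of the H/ACA genes, NHP2 had the largest fitted difference. In the order pre-treatment, 30 minutes, 2 hours and 1 day, NHP2 had 9.27, 6.18, 3.46 and 2.71 CPM in LG04 and 11.98, 7.55, 5.50 and 7.80 CPM in LG11. It had 6.42, 4.59, 8.69 and 3.53 CPM in LG12 and 10.03, 13.1, 4.23 and 5.07 CPM in LG15. All 4 animals were lower at 1 day than before treatment, yet the groups overlapped, since LG11 at 1 day exceeded LG12 before treatment.

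The NHP2 mean was 4.78 ± 2.24 CPM at 1 day, against 9.43 ± 2.31 CPM before treatment (SD, n = 4 each). The log2 fold change was -0.70 ± 0.35 (SE), with an adjusted p of 0.402 by edgeR. It rests on few reads: LG04 and LG12 had 5 counts each at 1 day, so that the 2.71 CPM of LG04 had an exact (Clopper-Pearson) 95% interval of 0.879 to 6.32 CPM. The log2 fold change was -0.51 without the 1 day library of LG04 and -0.38 without the 4 shallowest libraries, which hold 2 of the 4 libraries of 1 day. Over its alternatives the adjusted p of NHP2 ranged from 0.371 to 0.833.

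DKC1, the catalytic subunit, differed by animal and not detectably by time. In the order pre-treatment, 30 minutes, 2 hours and 1 day, DKC1 had 44.9, 51.0, 44.8 and 43.0 CPM in LG12 and 20.5, 22.2, 24.4 and 32.8 CPM in LG11. It had 21.7, 12.001, 6.36 and 22.2 CPM in LG04 and 24.5, 27.9, 18.5 and 13.0 CPM in LG15. LG12 was the highest at each time, and its lowest library was above every library of the other animals. The log2 fold change of DKC1 was 0.16 ± 0.21 (SE) at 1 day against pre-treatment, with an adjusted p of 0.857 by edgeR.

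NOP10 and GAR1 had the smallest ratios of highest to lowest CPM among the 9, at 3.12 and 2.64. NOP10 lay between 6.29 and 19.6 CPM (median 13.8) in 16 libraries, on 17 to 146 counts, and its log2 fold change at 1 day against pre-treatment was 0.16 ± 0.25 (SE). GAR1 lay between 3.46 and 9.13 CPM (median 6.81), on 12 to 65 counts. GAR1 was lower in 4 of 4 animals at 30 minutes than before treatment, in CPM and on the TMM scale (library sizes rescaled by the trimmed mean of M values), with a log2 fold change of -0.29 ± 0.22 (SE), and stood at 0.03 ± 0.22 at 1 day. None of these differences was called by edgeR. The adjusted p was 0.887 for NOP10 at 1 day, and 0.999862 at 30 minutes and 0.997704 at 1 day for GAR1.

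Of the C/D genes, FBL had the largest positive difference from pre-treatment in the whole set. In the order pre-treatment, 30 minutes, 2 hours and 1 day, FBL had 172, 145, 188 and 136 CPM in LG12 and 99.7, 131, 142 and 59.9 CPM in LG15. It had 61.8, 57.6, 44.1 and 69.3 CPM in LG04 and 65.1, 66.5, 62.2 and 69.0 CPM in LG11. LG12 was again the highest at each time, and the 4 times overlapped. FBL averaged 109 ± 67.6 CPM at 2 hours, against 99.6 ± 51.2 CPM before treatment (SD, n = 4 each). The log2 fold change was 0.32 ± 0.16 (SE; adjusted p 0.678 by edgeR), higher in 3 of 4 animals on the TMM scale and in 2 of 4 in CPM, and at 1 day it was -0.00036 ± 0.16.

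NOP56 and NOP58 also had their highest mean in LG12 on both scales. NOP56 ranged from 19.8 to 141 CPM and NOP58 from 19.4 to 134 CPM, with the lowest value of each in LG04 at 2 hours and the highest in LG12 before treatment. NOP56 was lower in 4 of 4 animals at 1 day than before treatment on both scales. Its mean was 63.3 ± 32.2 CPM at 1 day, against 82.9 ± 38.7 CPM before treatment (SD, n = 4 each), a log2 fold change of -0.22 ± 0.16 (SE; adjusted p 0.662 by edgeR). NOP58 stood at -0.07 ± 0.17 in the same comparison, with 3 of 4 animals lower on the TMM scale and 4 of 4 in CPM, and at -0.18 ± 0.17 at 2 hours, with 4 of 4 lower on both scales.

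NPM1 gave the smallest unadjusted p of the set. In the order pre-treatment, 30 minutes, 2 hours and 1 day, NPM1 had 129, 104, 65.3 and 109 CPM in LG04 and 158, 159.8, 178 and 172 CPM in LG11. It had 219, 243, 228 and 171 CPM in LG12 and 198, 249, 159 and 100.4 CPM in LG15. LG12 and LG15 were highest at 30 minutes and lowest at 1 day, whereas LG11 varied little, and the times overlapped.

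NPM1 averaged 138 ± 38.5 CPM at 1 day, against 189 ± 69.9 CPM at 30 minutes (SD, n = 4 each). The log2 fold change was -0.38 ± 0.13 (SE), with an unadjusted p of 0.0137 and an adjusted p of 0.215 by edgeR. NPM1 was lower in 3 of 4 animals on the TMM scale and in 2 of 4 in CPM. Its log2 fold change was -0.41 without the 1 day library of LG04, and over its alternatives the adjusted p ranged from 0.233 to 0.767. Against pre-treatment, NPM1 stood at 0.22 ± 0.13 at 30 minutes (higher in 4 of 4 animals on the TMM scale and in 3 of 4 in CPM) and at -0.16 ± 0.13 at 1 day. NPM1 has many processed copies in primate genomes and the sources do not say how reads that match several places were handled, so its counts are uncertain.

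NCL, the most abundant of the 9, ranged from 146 to 587 CPM on 547 to 3295 counts. Its mean was 329 ± 89.9 CPM at 1 day, against 441 ± 115 CPM before treatment (SD, n = 4 each). The log2 fold change of NCL was -0.22 ± 0.13 (SE; adjusted p 0.556 by edgeR), lower in 4 of 4 animals in CPM and in 3 of 4 on the TMM scale. At 2 hours it was -0.11 ± 0.13, lower in 4 of 4 animals on both scales, and both differences were within error.

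**Figure D3:**
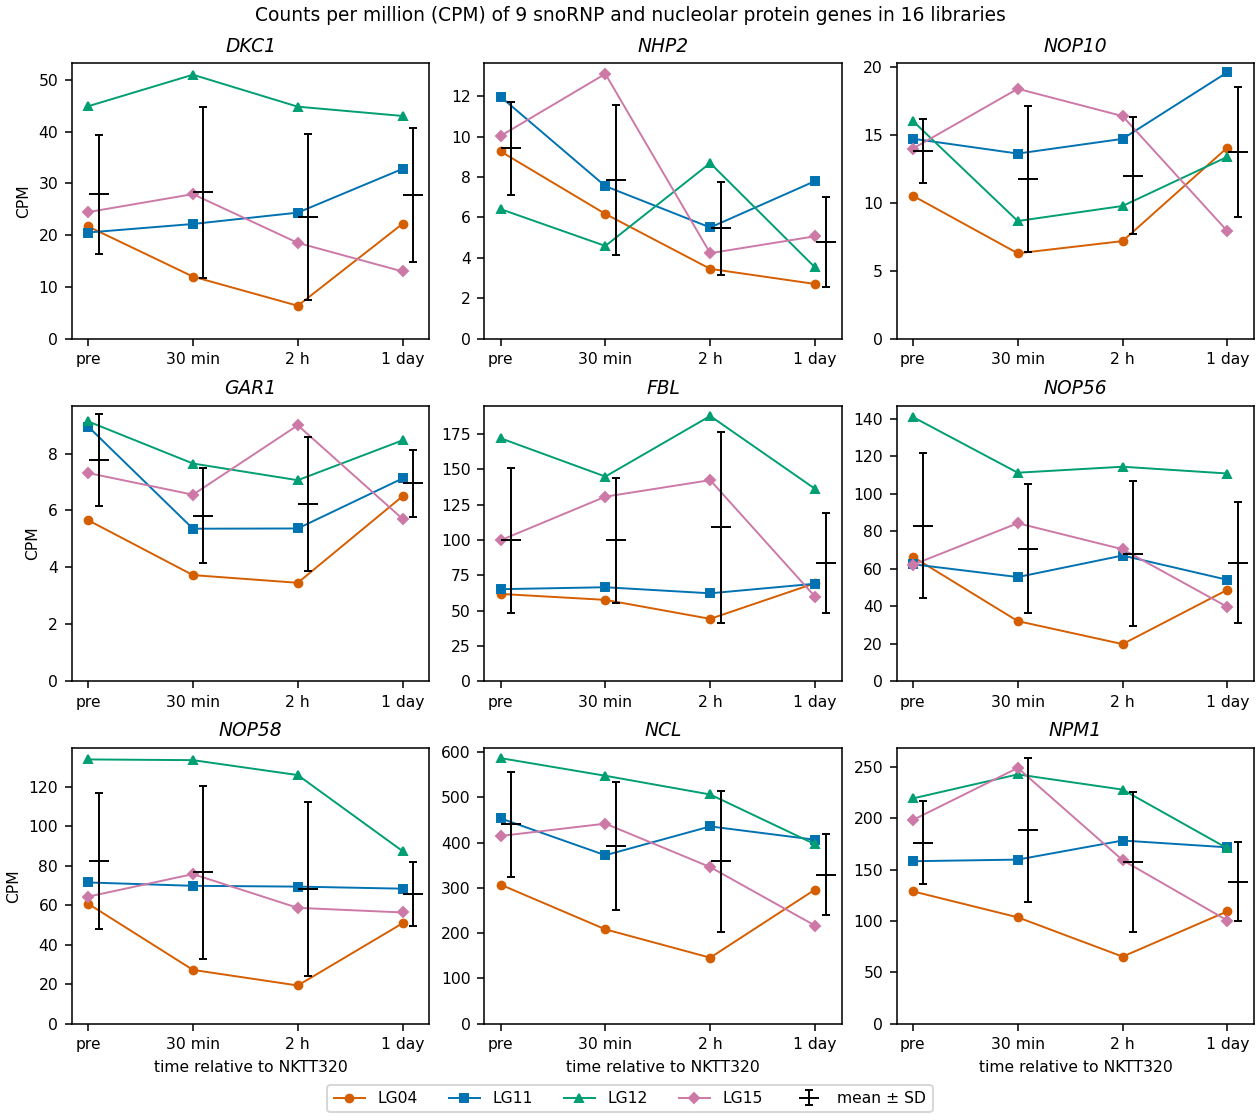
CPM (vertical axis, from 0) of each gene at the 4 times, with 1 line per animal and the mean ± SD of 4 animals in black. LG12 is highest at each time for DKC1, FBL, NOP56 and NOP58, and LG04 dips at 30 minutes and 2 hours in most panels.

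The dip of LG04 depended on the scale for the sum of the 9 genes, but not for every gene. Summed over the 9 genes, LG04 had 672, 457, 315 and 620 CPM in the order pre-treatment, 30 minutes, 2 hours and 1 day. Globin took 20.3%, 38.2%, 48.7% and 13.6% of the counts in these libraries. On the TMM scale the same sums were 717, 735, 686 and 752. NCL, the largest part of them, had 328, 335, 317 and 359 TMM-scaled CPM. NOP58 in LG04 still had 64.9, 43.8, 42.2 and 61.8 TMM-scaled CPM. NOP56 had 70.7, 51.5, 43.1 and 59.1, and DKC1 had 23.1, 19.3, 13.9 and 26.9. None of the other genes was lower in LG04 than before treatment at both 30 minutes and 2 hours on this scale. LG04 had the lowest mean CPM of the 4 animals for 9 of 9 genes, but the lowest mean on the TMM scale for 2 of 9, NOP58 and NPM1.

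Animals differed more than times for most of the set. On the log2 TMM scale the differences between animals held 79.6% of the variance over 16 libraries for FBL, 77.8% for NOP56, 73.0% for NOP58 and 68.9% for DKC1. The share was 41.5% for NCL, 36.9% for NOP10, 25.1% for NPM1, 23.0% for NHP2 and 16.8% for GAR1. The median of the 9 was 41.5%, beside 46.4% for all genes tested (quartiles 27.7% and 63.7%), so a large share between animals was common in these data. Differences between times held a median of 9.04% in the 9 genes, beside 12.1% for all genes tested, with the highest shares in NPM1 (41.5%) and NHP2 (31.6%). These shares depended on the scale. On log2(CPM + 1) without TMM scaling, times held 11.3% and animals 61.7% for NPM1, times held 41.0% for NHP2, and animals held 50.7% for GAR1.

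LG12 stood apart in 4 of the 9 genes and on both scales. For DKC1, FBL, NOP56 and NOP58 it was highest at 4 of 4 times in CPM and on the TMM scale. For NHP2 and NOP10, by contrast, LG12 had the lowest mean on the TMM scale, with 4.68 ± 1.74 TMM-scaled CPM for NHP2 and 9.67 ± 2.59 for NOP10 (SD, n = 4 libraries). The libraries of LG12 also differed in their cell markers. The sum of 8 B-cell markers was 889 to 1117 CPM in LG12, against 85.2 to 382 CPM in the other animals. The sum of 7 red-cell markers was 216 to 1501 CPM in LG12, against 29123 to 430719 CPM in the other animals. The part of these differences in the levels of the 9 genes was not tested.

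**Figure D4:**
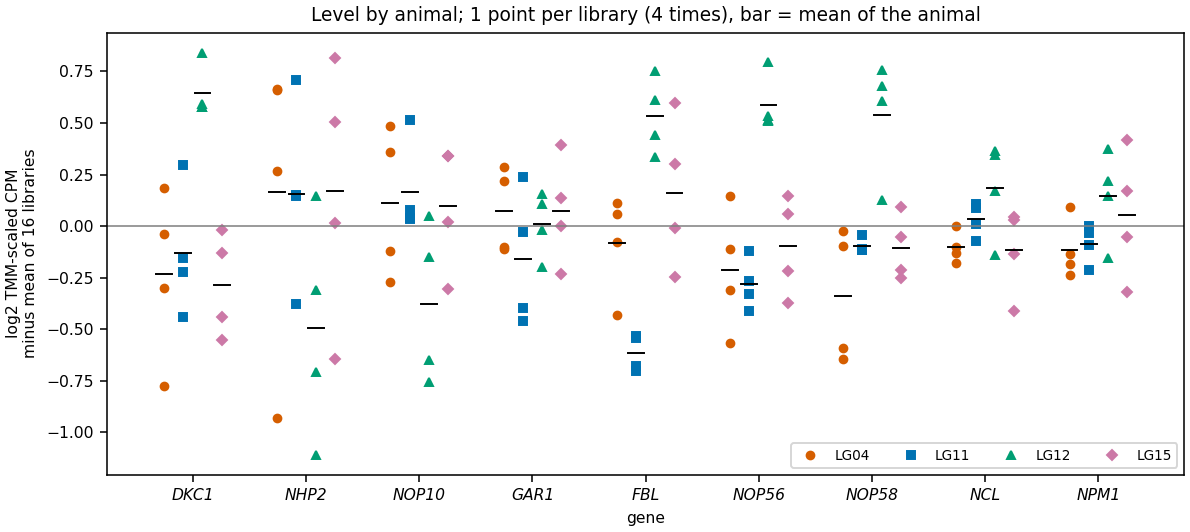
Log2 TMM-scaled CPM of each gene minus its mean over 16 libraries, with 1 point per library and a bar for the mean of each animal's 4 libraries. LG12 lies above the other animals for DKC1, NOP56 and NOP58, above LG04 and LG11 for FBL, and lowest on average for NHP2 and NOP10.

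Marker sums of other cell types and of lymphocytes also differed between times. The sum of 9 T-cell markers had a median of 1295 CPM before treatment and 1212 CPM at 30 minutes. Its median was 874 CPM at 2 hours and 876 CPM at 1 day. In CPM the sum was lower than before treatment in 4 of 4 animals at 2 hours and at 1 day. In LG04 it was 999 CPM before treatment and 881 CPM at 1 day, where the TMM factors were 0.940 and 0.826. The marker sums were not computed on the TMM scale, so a fall in LG04 at 1 day is not shown there. The sum of 5 NK-cell markers was 58.4 to 127 CPM at 30 minutes, against 154 to 212 CPM before treatment, without overlap. The share of all genes whose groups also lay apart in this comparison was not tested. Summed over 9 monocyte markers the median was 1510 CPM before treatment, 2110 CPM at 30 minutes, 4110 CPM at 2 hours and 1267 CPM at 1 day, with ranges that overlapped. The sum of 8 neutrophil markers was 157 to 349 CPM at 1 day, against 130 to 4140 CPM before treatment. Platelet markers ran from 821 to 25526 CPM at 1 day, against 145 to 10543 CPM before treatment. Their part in the values of NHP2 and NPM1 was not tested. The 5 markers of cycling cells summed to 64.4 to 86.1 CPM at 1 day, against 69.6 to 102 CPM before treatment.

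The rest of the ribosome-making machinery was read from lists of related genes. Of 16 proteins that assemble snoRNPs or complete their core, 16 were tested and edgeR called 0 in any comparison. Against pre-treatment, 0 of 16 at 30 minutes, 0 of 16 at 2 hours and 1 of 16 at 1 day had an unadjusted p under 0.05, beside 2.53%, 7.43% and 13.6% of all genes tested. The 1 was NUFIP1, an assembly factor of C/D particles, with a log2 fold change of -1.02 ± 0.28 (SE; adjusted p 0.117 by edgeR) at 1 day. NUFIP1 had 2.71, 5.51, 4.94 and 1.27 CPM at 1 day in LG04, LG11, LG12 and LG15, against 7.07, 8.67, 9.62 and 5.85 CPM before treatment. Those groups did not overlap, but NUFIP1 was named for having the smallest p of its list. How many of all genes also had groups without overlap was not tested. The 1 day values of NUFIP1 rest on few counts. In LG04 its 2.71 CPM is the level that NHP2 reached there with 5 counts, and 3 counts came to 2.12 CPM in LG12. NAF1, which loads H/ACA proteins before GAR1 replaces it, stood at -0.70 ± 0.35 (adjusted p 0.416). Without the 1 day library of LG04 the log2 fold changes were -1.05 for NUFIP1 and -0.92 for NAF1.

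For RNA polymerase I, which transcribes ribosomal DNA, 14 of 15 listed genes were tested and edgeR called 0, with 4 of 14 at an unadjusted p under 0.05 at 1 day against pre-treatment, beside 13.6% of all genes tested. The subunit gene POLR1F, listed as TWISTNB, had a log2 fold change of -0.72 ± 0.16 (SE) with an adjusted p of 0.088 by edgeR, and DESeq2 called it (-0.70, adjusted p 0.0243). It was the only call of DESeq2 among the 4 lists. DESeq2 called 3.07% of all genes in this comparison, so 1 call over the lists does not exceed that background. RRN3, an initiation factor of the polymerase, stood at 1.14 ± 0.43 (adjusted p 0.250 by edgeR). RRN3 had 108 CPM in LG04, 22.9 in LG11, 40.9 in LG12 and 77.6 in LG15 at 1 day, against 16.3, 16.5, 41.7 and 60.6 CPM in the same animals before treatment. The groups overlapped, and LG04 had by far the largest difference. Without the 1 day library of LG04 the log2 fold change of RRN3 was 0.67 (adjusted p 0.520 by edgeR) and that of TWISTNB was -0.72. The median of the 14 was -0.07, beside -0.00036 for all genes tested.

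The processing factors were read in the same way. Of 33 genes of the small-subunit processome 32 were tested, and of 40 genes of large-subunit assembly 39 were tested. By edgeR 0 of 32 and 0 of 39 were called in any comparison, while at 1 day against pre-treatment 5 of 32 and 4 of 39 had an unadjusted p under 0.05, beside 13.6% of all genes tested. UTP11L (UTP11), of the small-subunit processome, stood at 0.65 ± 0.20 (SE; adjusted p 0.160 by edgeR) and UTP15 at -0.52 ± 0.17 (0.177). LAS1L, which takes part in cutting the spacer of the large-subunit precursor, stood at -0.44 ± 0.14 (0.177). DDX21, a nucleolar helicase, stood at -0.46 ± 0.17 (0.224). Without the 1 day library of LG04 the values were 0.70 for UTP11L, -0.64 for UTP15, -0.45 for LAS1L and -0.49 for DDX21. At 1 day the list medians were -0.02 for snoRNP assembly, -0.06 for the small subunit and -0.06 for the large subunit. Without that library they were -0.0022, -0.11 and -0.087, and -0.019 for RNA polymerase I, with 0 genes called by edgeR in each list.

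At the earlier times the genes with the smallest p in each list were also uncalled by edgeR. At 30 minutes against pre-treatment the log2 fold changes were -0.39 ± 0.25 (SE) for NUFIP1 and -0.21 ± 0.19 for SHQ1, a chaperone of dyskerin. Of the polymerase list, TAF1B had -0.41 ± 0.24 and UBTF, the upstream binding factor of ribosomal DNA, had -0.14 ± 0.13. BYSL had -0.63 ± 0.26 and UTP14A 0.23 ± 0.17 in the small-subunit list, and FTSJ3 had -0.21 ± 0.13 and NPM3 0.43 ± 0.27 in the large-subunit list. The smallest adjusted p in each list was 0.999862 at this time.

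At 2 hours against pre-treatment PIH1D1 and RPAP3, both of the chaperone complex that assembles snoRNPs, had 0.67 ± 0.32 and -0.34 ± 0.18 on the log2 scale. TWISTNB had -0.31 ± 0.16 and UBTF -0.21 ± 0.13. UTP11L had 0.54 ± 0.20 and NOL11 -0.38 ± 0.16, and MDN1, a large ATPase of subunit maturation, had -0.40 ± 0.14 beside -0.37 ± 0.15 for URB1. The smallest adjusted p by edgeR was 0.676 for snoRNP assembly, 0.690 for RNA polymerase I, 0.560 for the small subunit and 0.506 for the large subunit.

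**Figure D5:**
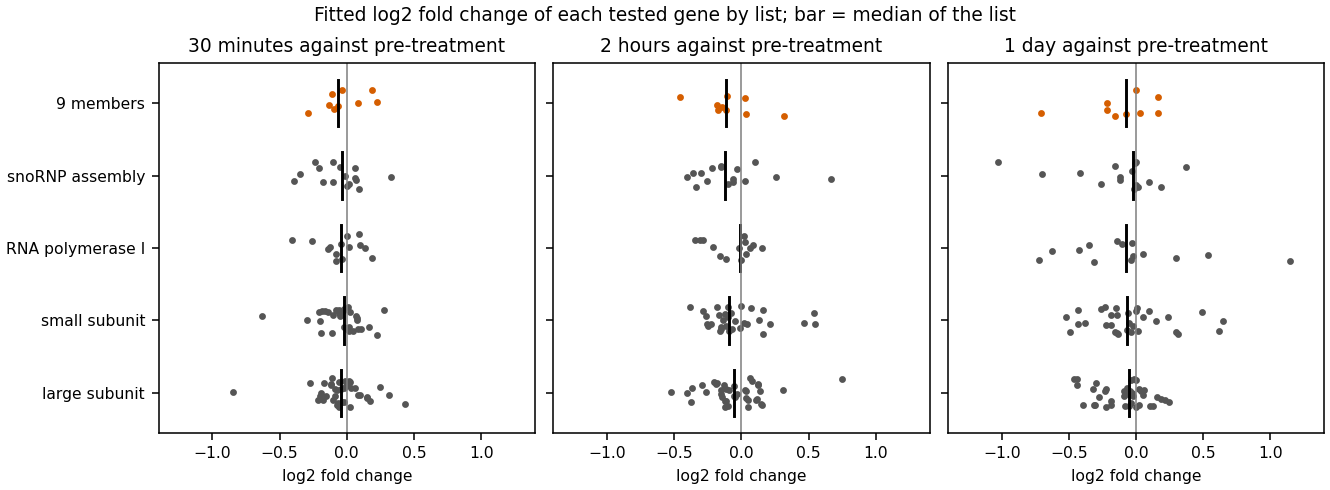
Fitted log2 fold change of each tested gene (points, scattered vertically for display) at 30 minutes, 2 hours and 1 day against pre-treatment, by list, with the list median as a black bar. Medians lie between -0.13 and 0 throughout, and the genes farthest from 0 at 1 day are RRN3 (1.14, or 0.67 without the 1 day library of LG04) and NUFIP1 (-1.02, or -1.05 without it).

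MYC encodes a transcription factor known to drive many nucleolar genes, NCL, FBL and DKC1 among them. It averaged 56.4 ± 22.6 CPM at 1 day, against 35.1 ± 8.99 CPM before treatment (SD, n = 4 each). Its log2 fold change against pre-treatment was 0.69 ± 0.24 (SE) at 30 minutes, 0.50 ± 0.24 at 2 hours and 0.83 ± 0.24 at 1 day. The adjusted p by edgeR was 0.136 at 1 day, so MYC was not called. Without the 1 day library of LG04 the 1 day value was 0.80.

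Several of the 9 genes carry snoRNAs in their introns, which are cut out of the same transcript. Of 13 such snoRNAs in the lists, 12 had a count in at least 1 library and 0 passed the filter on low counts. The highest total, 80 counts over 16 libraries, was that of SNORA75, which lies in an intron of NCL. No library gave more than 12 counts for any of them, so no comparison with the host genes could be made at this depth.

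The genes whose pattern over 16 libraries lay nearest to the mean of the 9 were CHD4, ARID1A, MAPKAP1, SNRNP200 and TMCC1. Likeness was the root mean square difference in log2 TMM-scaled CPM after subtraction of each animal's mean, among 4714 genes with a mean log2 CPM of at least 5. It was 0.067 for CHD4 and 0.075 for TMCC1, against a median of 0.232 in the pool. The mean of the 9 itself lay 0.101 from a flat line, so nearness to it mostly marks genes that varied little within animals. Of the members, NCL was the nearest, at 0.087, and NHP2 the farthest, at 0.452.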

How the data were processed

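Counts in the deposited tables are whole numbers for human Entrez gene models, not normalized. Per the submitters' processing notes the tools included STAR and HTSeq, with FastQC, Trimmomatic, edgeR and DESeq, and the builds hg19 and GRCh37. Versions, strand and multimapping settings are not given there. How the authors computed the deposited FPKM is not stated. These values were used to compare levels between genes, and the ratios between genes were also compared between animals and times. Of the 24369 entries, those with the same symbol were summed, and 8 of 8 repeated pre-treatment count columns were identical.

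Counts were tested with edgeR 4.0.16 in R 4.3.3 (quasi-likelihood F test, TMM, filterByExpr) in 1 model of all 16 libraries, with terms for time and for animal, which leaves 9 residual degrees of freedom. P-values were adjusted by Benjamini and Hochberg over 11545 genes with a threshold of 0.05. Standard errors are Wald errors scaled by the posterior quasi-dispersion. The fit was tested on simulated data. DESeq2 1.42.0 was an alternative; the others were RLE size factors, globin genes left out, no filter, no animal block, and libraries or animals left out. Leaving the 1 day library of LG04 out for genes other than the 9, the lists and the NHP2 ratio was chosen after seeing the data. Animals were blocked because each was bled at all 4 times: deviations from the time means correlated within an animal with a median of 0.56 (23 of 24 pairs over 0.1; lowest 0.061, LG04 before treatment and at 1 day). Each time has 1 library per animal, and the animal term takes out each animal's own level. The p-values therefore measure the changes between times against how much those changes vary among animals.

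CPM are counts scaled to the library total. Library depth was 1417467 to 8582852 counts; no molecular identifiers separate copies of one molecule, so intervals and the floor of 3 counts cover counting error only. The 9 genes and the lists were chosen with earlier results of these data known. The text names all 9, and per list the genes past the threshold or, where there were none, the pair with the smallest p in each comparison with pre-treatment; MYC; and the 5 genes nearest in pattern. Sequences were not used here.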

Additional observations from a re-analysis of the deposited data

Results flagged for a closer look

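In 4 of 36 groups of 4 libraries (9 genes at 4 times) the highest library lay far from the other 3 in CPM, by Dixon's test at the 95% level. Chance flags about 1 in 20 groups, and the 9 genes share their libraries. The library was that of LG12 each time: DKC1 before treatment (44.9 CPM, others 20.5 to 24.5), NOP56 before treatment (141 CPM, others 62.1 to 66.3), NOP58 before treatment (134 CPM, others 60.8 to 71.6) and FBL at 1 day (136 CPM, others 59.9 to 69.3).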

How the results depend on the processing

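The count of members called was 0 of 9 in all 7 tests under all 11 alternatives. Without the animal block (no pairing) it stayed 0 of 9, and the genes called at 1 day against pre-treatment numbered 3 in place of 26. That count was 387 by DESeq2, 70 without a filter, 0 without the 4 shallowest libraries and 1, 2, 1 and 67 without LG04, LG11, LG12 and LG15. By DESeq2 it was 14 at 30 minutes and 77 at 2 hours against pre-treatment, in place of 0 and 0. Of the alternative log2 fold changes of members, 554 kept their sign and 40 turned; none was called and the cause was not tested. Those that turned were, against pre-treatment, NOP10 at 2 hours (-0.0010 without a filter, -0.038 without the shallowest libraries), NPM1 at 2 hours (-0.0051 without a filter), GAR1 at 1 day (-0.013 without a filter, -0.0068 without the shallowest libraries, -0.0043 without the 1 day library of LG04) and FBL at 1 day (0.016 by DESeq2, 0.020 with RLE, 0.015 without the shallowest libraries). Between later times they were FBL at 2 hours against 30 minutes (-0.081 without the shallowest libraries), DKC1 at 1 day against 30 minutes (-0.026 without the 1 day library of LG04) and NOP58 at 1 day against 30 minutes (0.025 by DESeq2, 0.032 with RLE, 0.011 without globin, 0.13 without the shallowest libraries).

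Leaving out 1 animal at a time, the values that turned ranged as follows. At 30 minutes against pre-treatment DKC1 had -0.010 to 0.17, NHP2 -0.27 to 0.023, NOP10 -0.32 to 0.046 and NOP58 -0.14 to 0.073. At 2 hours NOP10 had -0.13 to 0.26, GAR1 -0.27 to 0.10, NOP56 -0.27 to 0.033 and NPM1 -0.042 to 0.11. At 1 day DKC1 had -0.021 to 0.34, GAR1 -0.088 to 0.19, FBL -0.13 to 0.13 and NOP58 -0.19 to 0.10. NOP56 had -0.094 to 0.048 at 2 hours against 30 minutes, -0.24 to 0.046 at 1 day against 2 hours and -0.20 to 0.042 at 1 day against 30 minutes. NHP2 had -0.60 to 0.14 and NOP58 -0.034 to 0.34 at 1 day against 2 hours, and DKC1 -0.034 to 0.27 and NOP58 -0.15 to 0.24 at 1 day against 30 minutes. By CPM in place of FPKM, NOP56 ranked above NOP58, and DKC1 above NOP10 and NHP2. Depth limits NHP2, NOP10 and GAR1, which had as few as 5, 17 and 12 counts in a library.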
